A study of Mus musculus with 9 samples.

Results

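The genes described here are the 61 members of 11 families of developmental transcription factors in a table of 25965 genes: Pax (9 genes), Lhx (8), Lmx1 (2), Nkx (14), Dlx (6), sine oculis (6), Irx (6), Pitx (3), Msx (3), Emx (2), and Barx (2). Members were chosen by name alone, as a family name followed by its number, and 8 antisense or opposite-strand names were left out. The study sequenced polyadenylated RNA from E14 cells, a feeder-free mouse embryonic stem cell (ESC) line of the 129/Ola background grown in serum and LIF. The text of the study places its knockdowns in a double reporter line for 2C-like cells (MERVL::tdTomato and Zscan4c::eGFP), which the sample labels do not name. The 3 groups received control, Dppa2, or Dppa4 siRNA, first at the start and again at 48 h, and all cells were collected at 96 h (day 4). Each group had 3 libraries, called A, B, and C, and the comparisons ask how siRNA against either gene altered the transcriptome. Every group shares the culture conditions and the transfections, and the 2 knockdowns are compared with the same control libraries. All samples come from a single cell line, and the labels do not say whether libraries of a group came from separate cultures, so p-values measure only the spread between these libraries.

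Most of these proteins bind DNA through a homeodomain, and Pax proteins bind through a paired domain. Pax1 and Pax9 have no homeodomain, and Pax2, Pax5, and Pax8 keep only part of one, so the set is broader than homeobox genes in the strict sense. Their genes act as patterning and cell fate regulators in the embryo, and in ESCs many are held silent or low at CpG-rich promoters that carry active and repressive histone marks together. Dppa2 and Dppa4 are small DNA-binding proteins of pluripotent cells, and the study examined them as activators of the transcripts of the 2-cell embryo that a rare 2C-like fraction of ESCs expresses.

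Values are the log2 expression that the authors deposited, with libraries matched to a common distribution and no correction for gene length. A gene was tested if its value was above -2 in at least 3 of the 9 libraries (14601 genes). It was called if limma gave a Benjamini-Hochberg adjusted p under 0.05 and it also passed an intensity difference filter, which asks whether its change stands apart from those of the 1% of genes nearest in expression. The estimated depth was 17.4 to 40.0 Mreads on genes per library. Dppa2 fell from 7.12 ± 0.17 (SD, n = 3) to 3.64 ± 0.25 in Dppa2 siRNA cells, while Dppa4 fell from 7.06 ± 0.05 to 6.13 ± 0.03 in Dppa4 siRNA cells. These are RNA values, and Dppa2 RNA stayed at 7.07 ± 0.09 with Dppa4 siRNA. By Western blot the study found that Dppa4 siRNA also greatly lowered Dppa2 protein, and that Dppa2 siRNA lowered Dppa4 protein to a lesser degree. At the protein level the knockdowns were thus not separate depletions. All 10 pluripotency markers stayed above -2 in every library, and none was called. The 2C-like markers behaved differently, as all 7 measured were called lower in each knockdown, with Tcstv1 at 0 in every knockdown library. Their summed level, on the log2 scale, was 6.16 to 6.22 in control libraries, -0.79 to 0.29 in Dppa2 siRNA libraries, and -0.68 to 0.03 in Dppa4 siRNA libraries, and its part in the results below was not tested. In bulk RNA, fewer cells of a type and less RNA per cell cannot be told apart.

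Most family members were low in these ESCs. The filter was passed by 27 of 61: 3 Pax, 1 Lhx, 2 Lmx1, 6 Nkx, 2 Dlx, 3 sine oculis, 5 Irx, 1 Pitx, 2 Msx, 1 Emx, and 1 Barx. Of these, 19 were above -2 in all 9 libraries. Dlx4 and Emx2 were above -2 in no control library and passed through the knockdown libraries alone, so their being higher there is partly fixed by the filter. No tested member lay under -2 in all knockdown libraries.

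**Figure D1:**
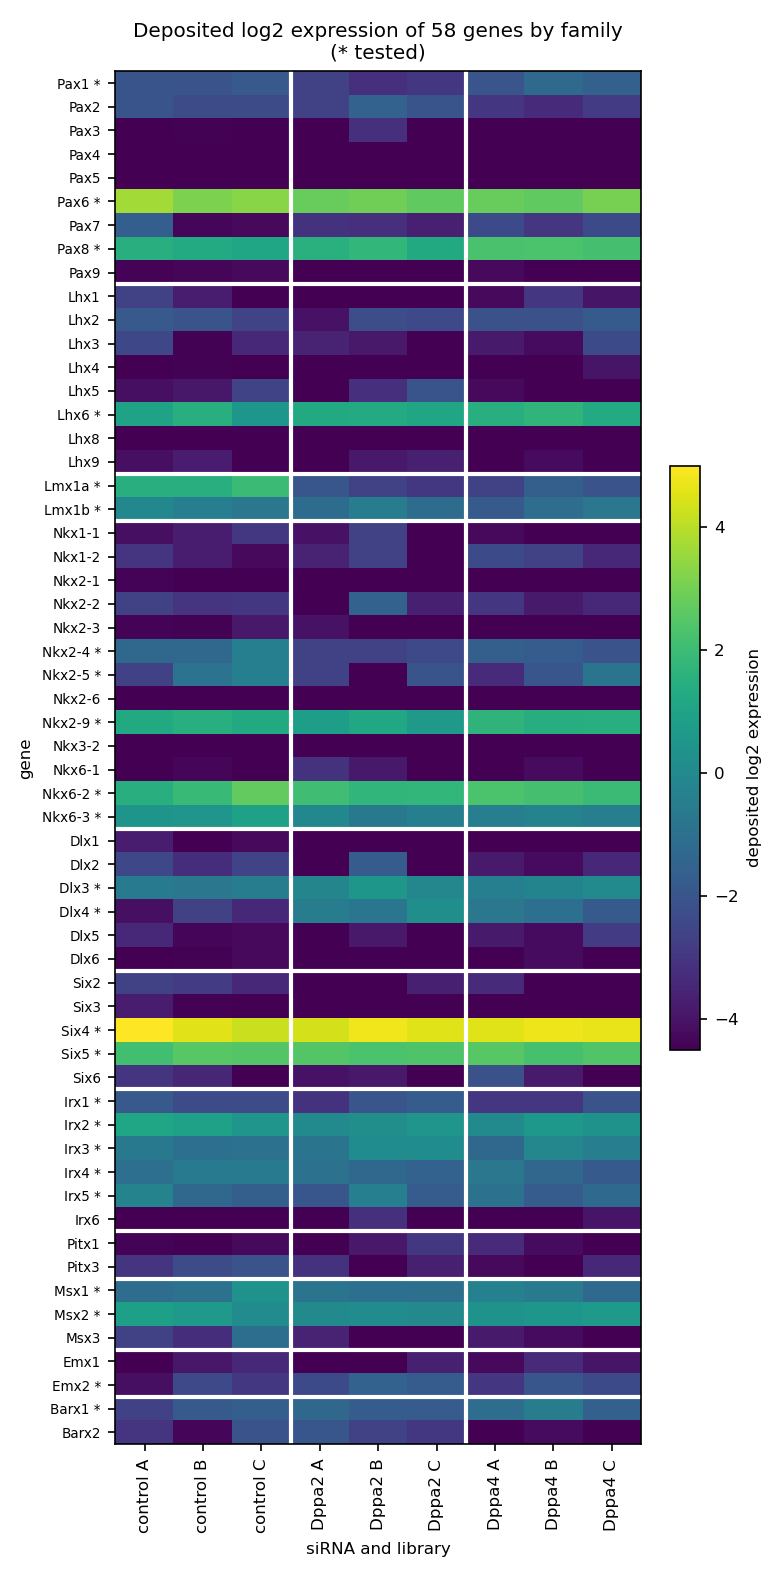
Deposited log2 expression (color) of 58 of the 61 genes, grouped by family from Pax at the top to Barx at the bottom, in the 9 libraries; white lines separate families and siRNA groups, and asterisks mark the tested genes. Six4 was highest, at 4.23 to 4.97 in control libraries, and the break at Lmx1a, from 1.45 to 1.99 with control siRNA to -2.95 to -1.61 with either knockdown, is the largest difference among the tested genes.

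In Dppa2 siRNA cells 2 of the 27 tested members were called: Lmx1a was lowered and Dlx4 was raised. Of all tested genes 1.91% were called, of which 1.53% lowered and 0.377% raised. In Dppa4 siRNA cells only Lmx1a was called, beside 1.95% of all tested genes (1.58% lowered and 0.37% raised). By limma's adjusted p alone the members past the threshold were Lmx1a, Nkx2-4, and Dlx4 in Dppa2 siRNA cells and Pax8, Lmx1a, and Dlx4 in Dppa4 siRNA cells, that is 3 of 27 in each, where 3.44% of all tested genes passed. Apart from Lmx1a these passes depended on the settings of the fit: over the alternatives that tested the gene, Dlx4 passed limma in 19 of 20 with Dppa2 siRNA but in 7 of 20 with Dppa4 siRNA, Nkx2-4 in 6 of 20, and Pax8 in 17 of 21. Dlx4 was tested through the knockdown libraries alone, so its place in all these counts is partly fixed by the filter.

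Lmx1a, a LIM homeodomain factor of the roof plate and of midbrain dopaminergic neurons, had the largest change of the set. It lies on chromosome 1 of GRCm38 from 167689239 to 167848741 on the plus strand (ENSMUSG00000026686). Its log2 expression was 1.48, 1.45, and 1.99 in control libraries A, B, and C, then -1.94, -2.65, and -2.95 with Dppa2 siRNA, and -2.61, -1.61, and -2.07 with Dppa4 siRNA. Every knockdown library was thus at least 3 log2 units below every control library, and the knockdowns overlapped each other. The difference was -4.15 with Dppa2 siRNA (95% interval -4.99 to -3.32, adjusted p = 0.000358 by limma) and -3.74 with Dppa4 siRNA (-4.57 to -2.90, adjusted p = 0.000719).

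The same change is visible in reads. Reads up to 300 can be inferred from the order of the deposited values, which gave 90, 154, and 98 reads on Lmx1a in control libraries. Dppa2 siRNA libraries had 7, 3, and 2 reads, and Dppa4 siRNA libraries 5, 10, and 5. Per Mread this was 4.64% of control (95% exact interval 2.37% to 8.21%) and 6.35% (3.83% to 9.96%). Here and below, such intervals pool the reads of the 3 libraries of a group and cover only the error of counting. They leave out the spread between libraries, and PCR copies without molecular identifiers can share 1 molecule. By size, Lmx1a ranked 70th of the 224 genes lowered by Dppa2 siRNA and 75th of the 230 lowered by Dppa4 siRNA. Within 500 kb of it 7 other entries were tested, of which 2 are for the same gene, Uck2. Of these entries 0 were called in either knockdown, beside 1.91% and 1.95% of all tested genes.

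Lmx1b, the paralog that patterns the dorsal limb and the kidney glomerulus, was lower in the means but its groups overlapped. Control libraries were at -0.06, -0.45, and -0.74, Dppa2 siRNA libraries at -1.12, -0.48, and -1.13, and Dppa4 siRNA libraries at -1.79, -1.10, and -0.72. The differences were -0.49 (-1.29 to 0.30, adjusted p = 0.622 by limma) and -0.79 (-1.58 to 0.01, adjusted p = 0.282). Per Mread the reads were 51.4% of control with Dppa2 siRNA (33.8% to 76.8%) and 43.4% with Dppa4 siRNA (28.7% to 64.6%). The intervals for Lmx1b exclude a change of the size seen in Lmx1a, although a test of the difference between the paralogs was not made.

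The promoter windows of both paralogs and of Pax8, which is described below, are printed as examples that differ in CpG content. A relation of CpG content to the differences was not tested. Each window holds the 250 bases before and 50 after the RefSeq transcription start of GRCm38.p6, 5′ to 3′ on the gene's own strand, with CG dinucleotides in capitals. The windows are chr1:167689308-167689607 (plus strand) for Lmx1a, chr2:33641049-33641348 (minus strand) for Lmx1b, and chr2:24475550-24475849 (minus strand) for Pax8.
Lmx1a: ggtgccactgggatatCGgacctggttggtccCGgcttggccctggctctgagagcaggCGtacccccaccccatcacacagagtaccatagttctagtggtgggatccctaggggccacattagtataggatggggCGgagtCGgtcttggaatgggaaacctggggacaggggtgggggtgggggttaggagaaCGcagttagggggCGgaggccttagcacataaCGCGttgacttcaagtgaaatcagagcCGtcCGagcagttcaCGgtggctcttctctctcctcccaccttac
Lmx1b: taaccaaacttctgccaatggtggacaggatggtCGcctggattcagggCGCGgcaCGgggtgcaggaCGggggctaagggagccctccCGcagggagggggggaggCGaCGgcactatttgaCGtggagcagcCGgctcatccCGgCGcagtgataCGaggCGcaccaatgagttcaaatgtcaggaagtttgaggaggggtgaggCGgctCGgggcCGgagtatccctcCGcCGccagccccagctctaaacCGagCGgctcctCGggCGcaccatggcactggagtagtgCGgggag
Pax8: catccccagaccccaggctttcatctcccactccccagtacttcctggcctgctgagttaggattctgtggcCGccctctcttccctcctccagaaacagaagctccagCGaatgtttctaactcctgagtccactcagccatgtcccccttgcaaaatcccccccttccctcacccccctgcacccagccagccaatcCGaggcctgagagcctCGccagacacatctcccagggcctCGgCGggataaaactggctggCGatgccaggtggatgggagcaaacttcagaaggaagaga

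The Lmx1a window held 12 CG dinucleotides, with an observed-over-expected ratio of 0.464, the Lmx1b window held 24 (0.766), and the Pax8 window held 7 (0.288). The ratio divides the number of CG by the number that the C and G content of the window would give, and windows above 0.6 are counted as CpG rich. Promoters were found for 44 of the 61 members, and 31 (70.5%) exceeded 0.6, compared with 48.9% of 16003 genes with a promoter. The tested members were like other tested genes (median 0.723 against 0.756), whereas the members too low to be tested had a median of 0.761 and all untested genes one of 0.205. Thus 72.0% of the 25 untested members with a promoter were CpG rich, against 12.3% of all untested genes. These letters describe the windows and say nothing of binding or methylation in these cells.

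**Figure D2:**
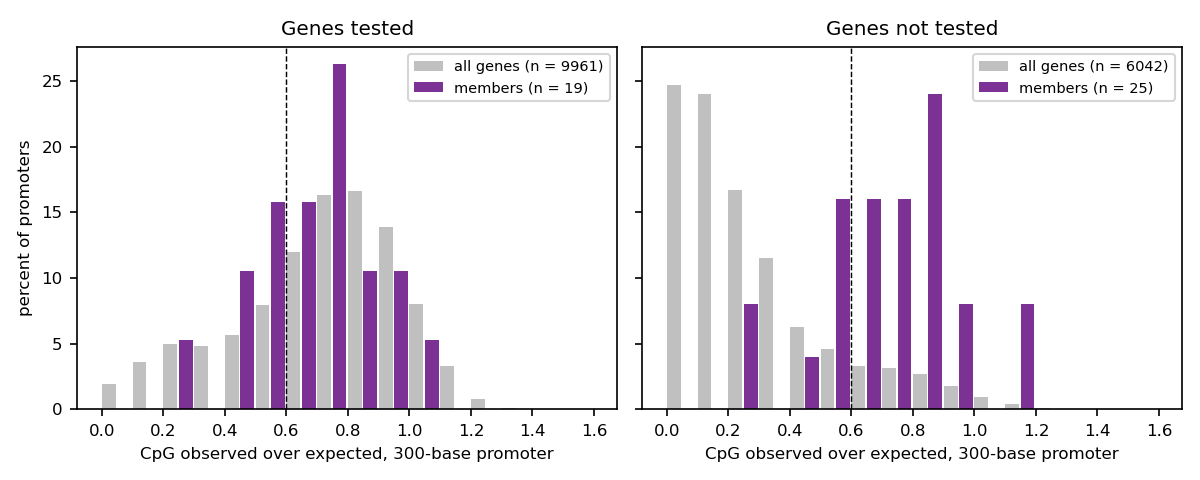
Percent of promoter windows (y axis) by CpG observed-over-expected ratio in steps of 0.1 (x axis), for tested genes at left and genes not tested at right; gray bars are all genes and purple bars the family members, and the dashed line is at 0.6. Among the genes not tested, 72.0% of members lie above the line and 12.3% of all genes.

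The Dlx family, whose members act in pairs in branchial arches, forebrain, skin, and placenta, held the one raised member. Dlx4 lies on chromosome 11 from 95140456 to 95146263 on the minus strand (ENSMUSG00000020871), and Dlx3, a regulator of placenta and epidermis, lies 15.2 kb away. Dlx4 was at -4.13, -2.66, and -3.40 in control libraries, at -0.48, -0.79, and 0.24 with Dppa2 siRNA, and at -0.75, -1.03, and -1.82 with Dppa4 siRNA. All 6 knockdown libraries were above all 3 control libraries. Dlx4 passed the filter through the knockdown libraries alone, so this order, and the p-values and rank that follow, are partly fixed by the filter. The difference was 3.05 in Dppa2 siRNA cells (1.97 to 4.14, adjusted p = 0.00915 by limma), where only 1 of the 55 raised genes had a larger one. In Dppa4 siRNA cells it was 2.20 (1.11 to 3.28, adjusted p = 0.0427 by limma), but there Dlx4 did not pass the intensity difference filter. With values under -2 raised to -2 before the fit the differences were 1.66 (still called) and 0.80, and over all alternatives the adjusted p from limma ran from 0.00786 to 0.052 and from 0.0331 to 0.249.

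These values rest on few reads, namely 2, 11, and 3 in control libraries, 20, 12, and 22 with Dppa2 siRNA, and 18, 15, and 6 with Dppa4 siRNA. Per Mread, Dlx4 was 4.46-fold higher with Dppa2 siRNA (2.52 to 8.36) and 2.65-fold higher with Dppa4 siRNA (1.45 to 5.07). The deposited scale gave larger folds, 8.29 and 4.58. Without Dppa2 siRNA replicate C the difference was 2.76 and Dlx4 was no longer called (adjusted p = 0.052 by limma).

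Dlx3 was at -0.60, -0.72, and -0.49 in control libraries, -0.17, 0.54, and -0.11 with Dppa2 siRNA, and -0.38, -0.20, and 0.04 with Dppa4 siRNA. Its control libraries also lay below all knockdown libraries, with differences of 0.69 (adjusted p = 0.204 by limma) and 0.42 (adjusted p = 0.432), neither of them called. Per Mread its reads were 127% of control with Dppa2 siRNA (91.1% to 177%) and 103% with Dppa4 siRNA (73.7% to 144%). Within 500 kb of Dlx4 19 other genes were tested, and 2 were called in Dppa2 siRNA cells, both lower: the 2C-like marker Tmem92 (-5.97) and Ppp1r9b (-0.43). Over all tested genes 1.91% were called with Dppa2 siRNA. Samd14 was higher and past limma's threshold alone (1.47, adjusted p = 0.0432). An antisense transcript overlaps Dlx4 on the other strand, and reads were counted by strand. Dlx1, Dlx2, Dlx5, and Dlx6, the pairs of the forebrain and arches, were too low to be tested.

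**Figure D3:**
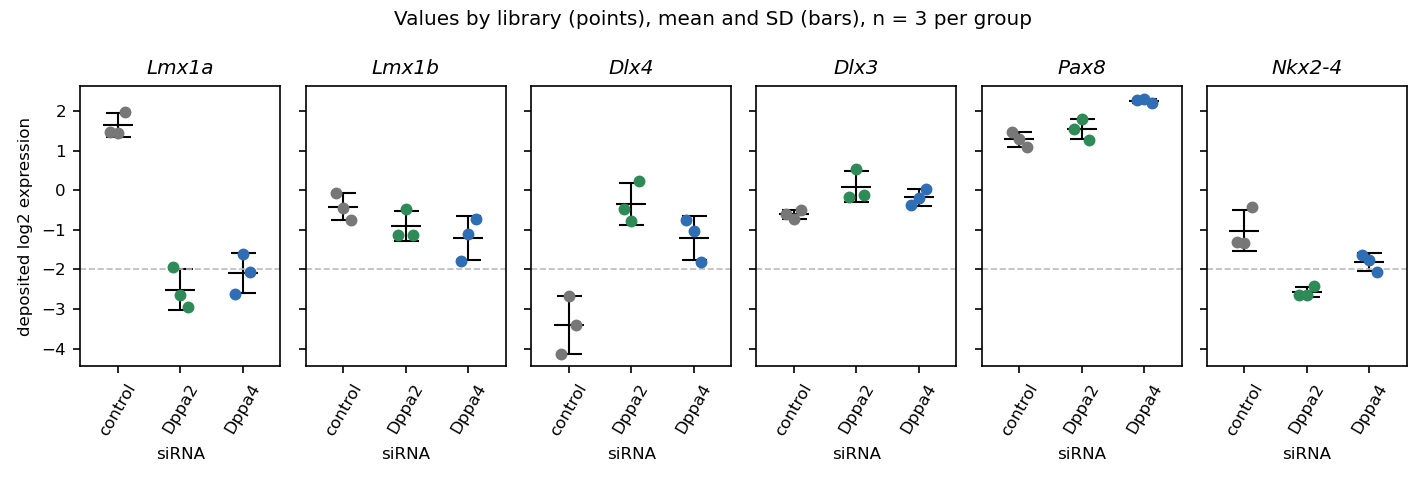
Deposited log2 expression (y axis) of 6 genes in each library (points) by siRNA (x axis), with the mean and SD of 3 libraries in black and the filter at -2 dashed. Lmx1a lies between 1.45 and 1.99 with control siRNA and at or below -1.61 in both knockdowns, Dlx4 runs the other way, and Pax8 is above 2 only with Dppa4 siRNA.

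Among the Pax genes, 3 of 9 were tested. Pax8, a regulator of thyroid and kidney, was at 1.48, 1.30, and 1.08 in control libraries, 1.55, 1.79, and 1.28 with Dppa2 siRNA, and 2.28, 2.30, and 2.20 with Dppa4 siRNA. The Dppa4 siRNA libraries were above all others and close to each other. The difference was 0.97 in Dppa4 siRNA cells (0.59 to 1.36, adjusted p = 0.0158 by limma), but the intensity difference filter was not passed, so Pax8 was not called. It was 0.25 in Dppa2 siRNA cells (-0.13 to 0.64, adjusted p = 0.581 by limma). Reads per Mread in Dppa4 siRNA cells were 1.79-fold those of control (1.54 to 2.09). Without control siRNA replicate A, Pax8 passed both criteria (1.07, adjusted p = 0.0252 by limma).

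Primitive endoderm markers also had higher values with Dppa4 siRNA: 7 of 8 were higher than with control siRNA and 0 were called, with Gata6 (1.44, adjusted p = 0.0132) and Sox17 (1.20, adjusted p = 0.0348) past limma's threshold. With Dppa2 siRNA 7 of 8 were higher too and none passed, with medians of 0.49 with Dppa2 siRNA and 1.14 with Dppa4 siRNA. Their summed level, led by abundant members, was 5.85 to 6.18 in control libraries, 6.0 to 6.07 in Dppa2 siRNA libraries, and 6.05 to 6.14 in those of Dppa4 siRNA, and none was at 0 in a whole group. Its part in the Pax8 values was not tested.

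Pax6, which specifies eye, forebrain, and endocrine pancreas, was the most abundant Pax transcript. It was at 3.67, 3.11, and 3.32 in control libraries, 2.78, 2.96, and 2.67 with Dppa2 siRNA, and 2.79, 2.67, and 3.06 with Dppa4 siRNA. Every knockdown library was below every control library, with differences of -0.57 (-0.96 to -0.18, adjusted p = 0.130 by limma) and -0.53 (-0.92 to -0.14, adjusted p = 0.143), neither called. The summed level of the 8 neuroectoderm markers was 6.74 to 6.85 with control siRNA, 6.31 to 6.37 in Dppa2 siRNA libraries, and 6.34 to 6.47 in those of Dppa4 siRNA. Of the 5 tested only Tubb3 was called, lower with Dppa2 siRNA (-0.54), Neurog2 was at 0 in control and Dppa2 siRNA cells and Olig2 in Dppa2 siRNA cells, and the part of these transcripts in the Pax6 values was not tested.

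Pax1, a factor of the sclerotome and pharyngeal pouches, passed the filter with 8 to 16 reads per control library and was not called (-0.95 and 0.37). Pax4 and Pax5, regulators of pancreatic beta cells and B cells, had 0 reads in all 9 libraries. Pax2, Pax3, Pax7, and Pax9 had some reads but too few to be tested.

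Of the Lhx genes only Lhx6, which directs cortical interneurons of the medial ganglionic eminence, was tested. It was at 0.96, 1.45, and 0.50 in control libraries, 1.27, 1.32, and 1.08 with Dppa2 siRNA, and 1.49, 1.73, and 1.32 with Dppa4 siRNA, so that the groups overlapped. The differences were 0.25 (adjusted p = 0.762 by limma) and 0.54 (adjusted p = 0.278). Per Mread its reads were 91.3% of control with Dppa2 siRNA (74.9% to 111%) and 116% with Dppa4 siRNA (97.3% to 138%). Lhx8 had 0 reads in all libraries.

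In the Nkx family 6 of 14 members were tested and none was called. Nkx2-4, a close paralog of the thyroid and forebrain factor Nkx2-1, was at -1.32, -1.33, and -0.42 in control libraries, -2.63, -2.65, and -2.42 with Dppa2 siRNA, and -1.62, -1.75, and -2.07 with Dppa4 siRNA. The 3 groups did not overlap in any pair, with the Dppa4 siRNA libraries between the others. The difference with Dppa2 siRNA was -1.55 (-2.33 to -0.76, adjusted p = 0.0478 by limma), from 59 reads in the control group against 10, and it did not pass the intensity difference filter. It was -0.98 with values under -2 raised to -2, and over the alternatives limma's adjusted p ran from 0.0142 to 0.16. With Dppa4 siRNA it was -0.79 (adjusted p = 0.273 by limma).

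Nkx6-3, a factor of the gastric epithelium, was named after its values were seen. It was at 0.41, 0.45, and 0.94 in control libraries, -0.05, -0.66, and -0.42 with Dppa2 siRNA, and -0.45, -0.26, and -0.44 with Dppa4 siRNA. All knockdown libraries lay below the control libraries, with nearly the same difference in each, -0.98 (-1.52 to -0.45, adjusted p = 0.0633 by limma) and -0.99 (-1.52 to -0.45, adjusted p = 0.0609). Neither was called, and per Mread the reads were 41.8% of control (30.2% to 57%) and 40.6% (30% to 54.5%).

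Nkx2-9, expressed in the ventral neural tube, was at 1.26, 1.51, and 1.28 in control libraries, 0.82, 1.21, and 0.60 with Dppa2 siRNA, and 1.69, 1.44, and 1.46 with Dppa4 siRNA. Only the Dppa2 siRNA libraries were apart from control, with differences of -0.48 (adjusted p = 0.251 by limma) and 0.18 (adjusted p = 0.717). Its neighbors within 100 kb, Nkx2-1 and Pax9, were too low to be tested. Nkx6-2, a ventral neural tube and oligodendrocyte factor, was at 1.48, 1.89, and 2.72 in control libraries. Its knockdown libraries lay inside that range, at 2.10, 1.76, and 1.79 and at 2.30, 2.18, and 1.98, with differences of -0.15 (adjusted p = 0.929 by limma) and 0.13 (adjusted p = 0.894). The heart factor Nkx2-5 overlapped between groups, and its spread was the widest of all tested members (SD of 1.18 in control libraries and 1.27 and 1.28 with the knockdowns).

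The sine oculis family acts with Eya cofactors in eye, ear, kidney, and muscle, and held the most abundant member, Six4. Six4 was at 4.97, 4.57, and 4.23 in control libraries, 4.37, 4.80, and 4.55 with Dppa2 siRNA, and 4.54, 4.77, and 4.70 with Dppa4 siRNA. The groups overlapped, and the intervals of the differences, -0.02 (-0.44 to 0.41, adjusted p = 0.990 by limma) and 0.08 (-0.35 to 0.50, adjusted p = 0.907), exclude a change of 1 log2 unit in either direction. Six5, the lens and muscle member, was just as close, at 0.01 (-0.32 to 0.33) and 0.03 (-0.30 to 0.35), from control values of 2.13, 2.54, and 2.45. Six2, Six3, and Six6, of kidney progenitors, forebrain, and retina, were too low to be tested.

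Of the Irx genes 5 of 6 were tested. Irx1, Irx2, and Irx4 form a cluster on chromosome 13, and Irx3, Irx5, and Irx6 one on chromosome 8. These genes pattern neural tube, heart, and limb. Irx2 was at 1.09, 0.94, and 0.47 in control libraries, 0.04, 0.20, and 0.46 with Dppa2 siRNA, and 0.04, 0.55, and 0.34 with Dppa4 siRNA. Control library C was within 0.1 of the highest knockdown libraries while A and B stood above all of them, and the differences were -0.60 (adjusted p = 0.242 by limma) and -0.52 (adjusted p = 0.279). Irx1 and Irx4 were also lower in the means of both knockdowns, at -0.13 and -0.54 for Irx1 and -0.52 and -0.56 for Irx4. In the other cluster Irx3 was higher (0.68 and 0.25) and Irx5 lower (-0.31 and -0.26). None was called, and all 4 overlapped control in both knockdowns. Per Mread the reads on Irx3 were 120% of control with Dppa2 siRNA (82.9% to 173%) and 95.2% with Dppa4 siRNA (65.5% to 138%).

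Msx2, a BMP target in limb, skull, and tooth, was at 0.86, 0.64, and 0.09 in control libraries, 0.00, 0.07, and -0.03 with Dppa2 siRNA, and 0.36, 0.49, and 0.60 with Dppa4 siRNA. Its differences were -0.52 (adjusted p = 0.297 by limma) and -0.05 (adjusted p = 0.954). Msx1, its partner in the same tissues, was not called either (-0.40 and -0.15).

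Emx2, a regulator of cortex and urogenital tract, had at most 13 reads in a library. Its values were -4.13, -2.42, and -2.95 in control libraries, -2.38, -1.52, and -1.73 with Dppa2 siRNA, and -2.99, -1.95, and -2.38 with Dppa4 siRNA. The difference of 1.29 with Dppa2 siRNA (0.08 to 2.50, adjusted p = 0.281 by limma) did not show in reads per Mread, which were 118% of control (57.8% to 240%). With Dppa4 siRNA it was 0.72 (adjusted p = 0.564 by limma), with reads at 91.4% of control. Barx1, of stomach mesenchyme and molar teeth, was at -2.66, -1.80, and -1.62 in control libraries, -1.28, -1.72, and -1.73 with Dppa2 siRNA, and -1.10, -0.48, and -1.59 with Dppa4 siRNA. Its differences were 0.45 (adjusted p = 0.734 by limma) and 0.97 (adjusted p = 0.246), and neither was called. Per Mread its reads were 85.6% of control with Dppa2 siRNA (47.7% to 151%) and 137% with Dppa4 siRNA (85.5% to 222%).

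**Figure D4:**
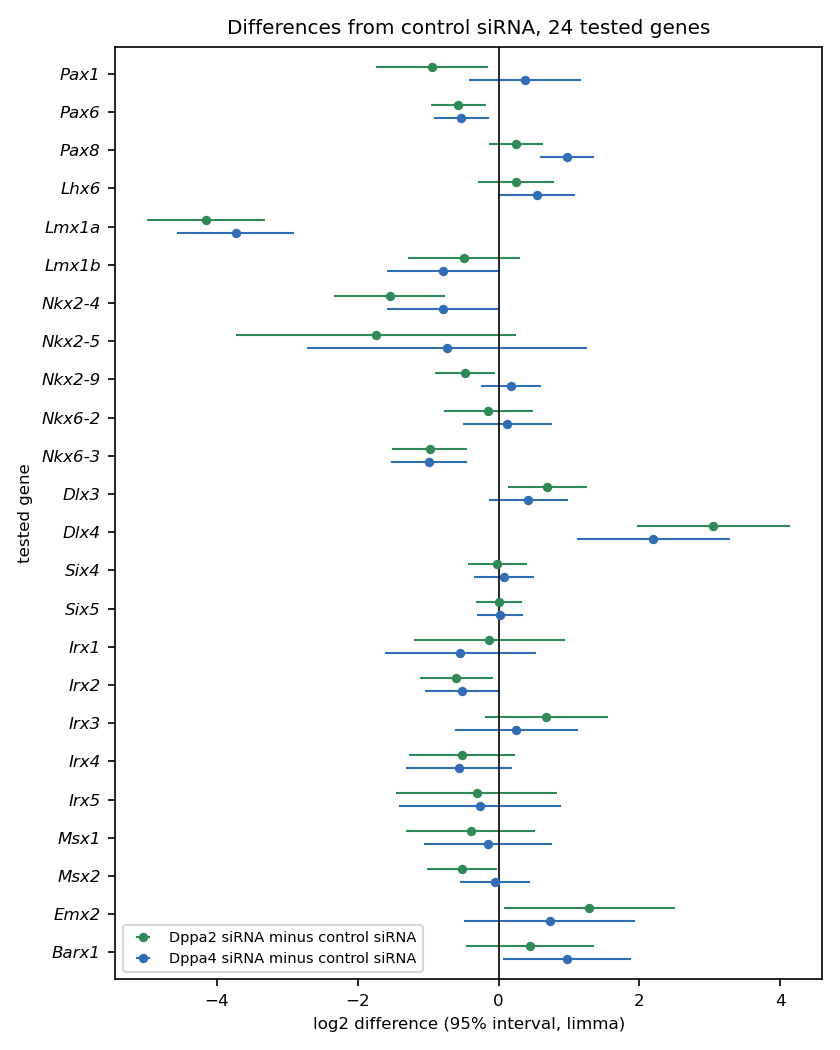
Log2 difference from control siRNA with its 95% interval from limma (x axis) for 24 of the 27 tested genes (y axis, by family), green for Dppa2 siRNA and blue for Dppa4 siRNA, which share the control libraries. Lmx1a has the lowest values, -4.15 and -3.74, and Dlx4 the highest, 3.05 and 2.20, of which 2.20 was not called.

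The median difference of the tested members was -0.31 with Dppa2 siRNA (9 higher, 18 lower) and -0.10 with Dppa4 siRNA (12 higher, 15 lower). Over all tested genes the medians were 0.02 and 0.03. Of the 27 differences, 22 with Dppa2 siRNA and 25 with Dppa4 siRNA lay within 1 log2 unit of 0. With Dppa2 siRNA the groups did not overlap for 9 lower members (33.3%), among them Pax1, Pax6, Lmx1a, Nkx2-4, Nkx2-9, Nkx6-3, Irx2, and Msx2, beside 8.20% of all tested genes, and for 3 higher members (11.1%) beside 9.57%. The 3 higher members were Dlx3, Dlx4, and Emx2, of which Dlx4 and Emx2 passed the filter through the knockdown libraries alone. With Dppa4 siRNA they did not overlap for 5 lower members (18.5%), among them Pax6, Lmx1a, Nkx2-4, and Nkx6-3, beside 10.2%, and for 4 higher members (14.8%) beside 13.7%. An unadjusted p under 0.05 from limma was reached by 11 of 27 with Dppa2 siRNA, where 15.7% of all tested genes reached it, and by 7 of 27 with Dppa4 siRNA (18.0%). The intervals limit what can be said of single genes: the median interval reached 0.64 log2 units to either side for members and 0.43 for all tested genes, and it lay wholly within 1 log2 unit of 0 for only 10 of the 27 in each knockdown.

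**Figure D5:**
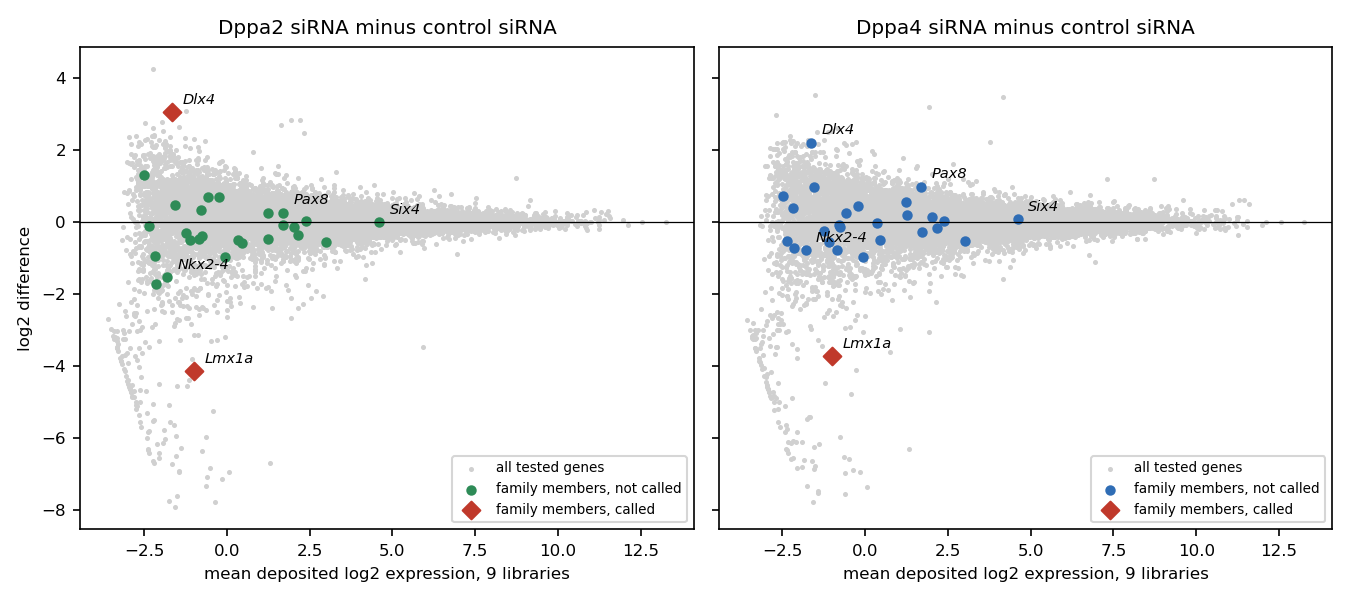
Log2 difference from control siRNA (y axis) against mean deposited log2 expression over 9 libraries (x axis) for all 14601 tested genes (gray) and the 27 tested members (colored), with called members as red diamonds; Dppa2 siRNA at left, Dppa4 siRNA at right. Lmx1a was called at -4.15 and -3.74 and Dlx4 at 3.05 with Dppa2 siRNA; the Dlx4 value of 2.20 with Dppa4 siRNA was not called.

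The scale of low values differed between treatments. At 10 to 30 reads the deposited values implied totals that differed from those at 100 to 300 reads. The difference was -0.37 to -0.30 log2 units in the knockdown libraries and -0.14 to 0.03 in control libraries. A few reads were thus placed higher in knockdown libraries. At 3 reads the value was -3.78 in control library A (24.7 Mreads) and -3.09 in Dppa2 siRNA library A (25.8 Mreads). Among the 24 tested members with reads inferred in all libraries the median of reads per Mread was 59.6% of control with Dppa2 siRNA and 74.0% with Dppa4 siRNA. For all tested genes with such reads (5086 and 5091) it was 88.6% and 89.4%, and for those with fewer than 300 reads over both groups 80.7% and 83.3%. On this scale 19 of the 24 members were below control with Dppa2 siRNA (79.2%, beside 62.4% of all) and 18 with Dppa4 siRNA (75.0%, beside 61.7%). Among the genes with fewer than 300 reads over both groups these shares were 66.1% and 65.0%.

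The 34 members that were not tested included 5 with 0 reads in all 9 libraries (Pax4, Pax5, Lhx8, Nkx2-6, and Nkx3-2). That was 14.7% of them, beside 65.7% of all untested genes. At most 3 reads in every library were found for 16 of the 34. The highest had 16 reads in a library. Their summed reads per Mread were 4.37, 3.70, and 3.79 in control libraries, 1.16, 2.29, and 1.21 with Dppa2 siRNA, and 1.98, 1.36, and 1.49 with Dppa4 siRNA. Control libraries were thus above all knockdown libraries. The same held for all 11364 untested genes together, with 346 to 390 reads per Mread in control libraries, 170 to 189 in Dppa2 siRNA libraries, and 182 to 216 in Dppa4 siRNA libraries. The filter partly fixes this order for both sets, because an untested gene could hold more reads in a control library. In control library A 9 reads still lay under -2 (-2.031). In library A of Dppa2 siRNA 7 reads (-1.945) and of Dppa4 siRNA 8 reads (-1.998) already lay above it. Of the 34 members, 8 to 14 had 0 reads in a control library, 17 to 23 in a Dppa2 siRNA library, and 16 to 21 in a Dppa4 siRNA library.

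The knockdowns were also compared directly. No member was called between Dppa4 and Dppa2 siRNA cells (0 of 27 by limma with the intensity filter and 0 by limma alone, beside 0.0205% of all tested genes). At an unadjusted p under 0.05 there were 3, Pax1, Pax8, and Nkx2-9, all higher with Dppa4 siRNA, beside 6.76% of all tested genes. Their differences were 1.32, 0.72, and 0.65, with adjusted p from limma of 0.586, 0.586, and 0.632. The groups did not overlap for 5 members higher with Dppa4 siRNA, namely Pax1, Pax8, Nkx2-4, Nkx2-9, and Msx2, beside 10.1% of all tested genes, and for 0 lower members beside 7.54%. The difference of Lmx1a between the knockdowns was 0.42 (-0.41 to 1.25) and that of Dlx4 was -0.86 (-1.94 to 0.23), so neither is shown to respond more to one siRNA than to the other.

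Per kilobase of merged exons, the order of control levels began with Six4 (1.15 on the log2 scale), Nkx6-2 (1.10), Nkx2-9 (1.01), and Six5 (0.78), with Lmx1a (-0.13) and Pax6 (-0.18) further down. Lmx1a was therefore near the level of Pax6 in control cells. Of the 26 steps in this order only 3 exceeded the combined SD of the neighbors.

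Proteins that work with these factors were examined as a list: the LIM-domain partners Ldb, Ssbp, and Lmo, the Eya and Dach cofactors of the sine oculis proteins, the Groucho corepressors, Paxip1 and Daxx, and the TALE homeobox factors. Of 34 genes 30 were tested and 0 were called in either knockdown, with median differences of 0.02 and 0.09. By limma alone none passed with Dppa2 siRNA and 1 passed with Dppa4 siRNA, Tle1, a Groucho corepressor (-0.45, adjusted p = 0.0354).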

How the data were processed

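RNA-seq was available for 9 libraries, 3 per siRNA. Per the labels and the methods of the study, the authors trimmed reads (Trim Galore 0.4.5 in the labels) and aligned them with HISAT2 2.0.5 to the GRCm38 assembly. They counted reads by strand on mRNA features in SeqMonk and brought the libraries to a common cumulative distribution. They deposited normalized log2 expression values for 25965 genes, with no counts.

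Groups came from the sample labels. limma 3.58.1 (R 4.3.3) was fitted to the deposited log2 values of every library, with an intensity trend and no covariate beside treatment. p-values were adjusted by Benjamini-Hochberg over 14601 genes (threshold 0.05). The DESeq2 test of the authors needs counts and was not used. The intensity difference filter was rebuilt as a two-sided normal model, in which each gene is compared with the nearest 1% by mean expression (p under 0.05). Reads up to 300 were inferred from the order of distinct values (63.5% to 71.8% of genes per library). Depth was estimated from the slope between 100 and 300 reads, so it is approximate and its precision is limited. Ratios of reads have exact binomial intervals (95%) on reads pooled over the libraries of a group, without the spread between libraries. Gene places are from the GENCODE annotation of GRCm38, promoters from RefSeq (GRCm38.p6). Every 5th stretch of 50 bases of each member was looked up in other annotated genes: none was shared for Lmx1a, Dlx4, Pax8, or Nkx2-4, and at most 6.45% for any member (Dlx6). Figures were drawn with matplotlib 3.10.9 in Python 3.11.15, and tables were made with scipy 1.17.1, pandas 2.3.3, and numpy 2.4.6.

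The members and lists were chosen with earlier results of these data known. Members were named with full values if past limma's threshold in any comparison, if highest in their family in control libraries, or if among the 10 highest over all libraries, apart from some members that are counted but not reported singly here. Marker lists for mesoderm, epiblast, and trophoblast had 0 called genes, and that for fibroblasts had 1, Vim, lower with Dppa2 siRNA. The 21 alternatives covered the second criterion, the trend, the prior, the filter, low values, scaling, libraries in the fit, and the replicate letter. The other experiments of the study and the Dux transcript are not analysed here.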

Additional observations from a re-analysis of the deposited data

How the results depend on the processing

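Lmx1a passed limma's threshold with either siRNA in all 21 alternatives, with differences of -4.44 to -3.94 (Dppa2 siRNA) and -3.98 to -3.48 (Dppa4 siRNA) when 1 library was left out. Where counts or medians moved, the cause was not tested unless given. With the intensity difference filter on adjusted p, 0 members were called in either knockdown, beside 92 (Dppa2 siRNA) and 73 (Dppa4 siRNA) of all 14601 tested genes. With limma alone, 3 members were called in each knockdown, beside 502 of all tested genes in each. With a filter at log2 above 0 in 3 libraries, 13 members were tested and 0 were called with Dppa2 siRNA, since Dlx4 was not among them and Lmx1a missed the intensity difference filter. Of all 12578 genes tested there, 184 were called. The median difference with Dppa2 siRNA was -0.12 without a filter, -0.13 without a filter and with a common lowest value (chosen after seeing the data), and -0.15 with values under -2 raised to -2. Without a filter limma passed 9140 genes with Dppa2 siRNA against 502 with it (453 with a common lowest value), and the called genes numbered 457 against 279.

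Leaving out 1 library gave 1 to 2 members called with Dppa2 siRNA (Dlx4 lost without Dppa2 siRNA replicate C), 1 to 2 with Dppa4 siRNA (Pax8 gained without control siRNA replicate A), and 0 between the knockdowns. Of all 14601 tested genes, 183 to 239, 149 to 287, and 1 to 3 were called in these fits. Medians of the members ran from -0.40 to -0.21, from -0.20 to 0.0043, and from 0.065 to 0.20. Differences near 0 changed sign in single omissions. With Dppa2 siRNA these ranges were -0.42 to 0.20 for Nkx6-2, -0.20 to 0.17 for Six4, and -0.11 to 0.089 for Six5. With Dppa4 siRNA they were -0.15 to 0.47 for Nkx6-2, -0.10 to 0.27 for Six4, -0.094 to 0.11 for Six5, and -0.27 to 0.12 for Msx2. Between the knockdowns they were -0.069 to 0.13 for Pax6, -0.0079 to 0.20 for Six4, -0.046 to 0.095 for Six5, and -0.043 to 0.21 for Irx2.

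The letters A, B, and C did not pair the libraries: deviations of libraries with the same letter correlated at -0.59 to 0.37, with 2 of 9 pairs over 0.1. For different letters in different groups the range was -0.66 to 0.69, with 6 of 18 pairs over 0.1. Some libraries of different groups thus shared deviations that the letters do not follow. With a replicate block 2, 1, and 0 members were called, as without it, and 187 and 176 genes in all against 279 and 284. Members with few reads have wide intervals, so a difference not called here may be present but was not detectable at this depth.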
